A study of Mus musculus with 12 samples.

Results

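The microRNA processing and silencing machinery was followed here through 10 genes: Drosha, Dgcr8, Xpo5, Dicer1, Ago1, Ago2, Ago3, Ago4, Tnrc6a and Tnrc6b. They were listed by name for their known roles, with earlier results of these data known, and all 10 were found by gene symbol among the 16414 genes of the count table. The cells were 3T3-L1 fibroblasts, a mouse fibroblast line that can be induced to store fat, and nothing in the labels states which passage or clone was used. All cultures received a miRNA mimic at 20 nM with a Lipofectamine reagent for 48 h, either the miR-335-5p mimic or a scrambled non-targeting (NT) mimic. All were then induced with 200 nM insulin, 0.5 mM IBMX, 250 nM dexamethasone and rosiglitazone until day 3, kept on insulin alone afterwards, and spent the last day before day 6 without it. RNA was sequenced at day 3 (labelled preadipocyte) and day 6 (labelled adipocyte), with 3 libraries for each mimic and day, 12 in all. The day of sampling and the withdrawal of the induction agents therefore cannot be told apart. The level of miR-335-5p itself was not analysed here.

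A microRNA begins as a hairpin in a longer transcript. The nuclease Drosha and its RNA-binding partner Dgcr8, together the Microprocessor, cut the hairpin out in the nucleus, Exportin-5 (Xpo5) carries it to the cytoplasm, and Dicer1 cuts it to a short duplex. One strand is loaded into an Argonaute protein (Ago1 to Ago4), of which Ago2 is the member known to slice its target, and the GW182 proteins (Tnrc6a, Tnrc6b and Tnrc6c) bind Argonaute and recruit the enzymes that shorten the poly(A) tail and repress translation. A synthetic mimic is a ready-made short RNA, so it bypasses Drosha, Dgcr8, Xpo5 and Dicer1 and needs only loading into Argonaute. Microprocessor is also known to cut hairpins within the Dgcr8 transcript itself, which is a way in which the complex controls its own amount.

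The sequences that connect these genes with the mimic are given first, from RefSeq on the GRCm38.p6 build. The mimic carries the guide strand of miR-335-5p, whose gene lies at chr6:30741314-30741336 on the plus strand within an intron of Mest. The hairpin of miR-1306 lies inside the Dgcr8 transcript: the 5p arm is at chr16:18284288-18284310 and the 3p arm at chr16:18284248-18284268, both on the minus strand. Capitals mark the seed, bases 2 to 8, and the 3 seeds differ from each other.
mmu-miR-335-5p: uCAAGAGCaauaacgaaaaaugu
mmu-miR-1306-5p: cACCACCUccccugcaaacgucc
mmu-miR-1306-3p: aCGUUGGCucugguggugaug
In the longest annotated Dgcr8 transcript of 4320 bases, the arms take positions 531 to 553 and 573 to 593, inside the coding part at 425 to 2746. The count table gives a gene's reads as 1 value, so cut and uncut Dgcr8 transcripts were not separated.

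The 3′ UTRs of the members were searched on the sense strand for GCTCTTG, which pairs with the miR-335-5p seed, and for CTCTTGA, which pairs with bases 2 to 7 and ends in an A opposite the first base; their 8-base union is GCTCTTGA. For each gene the search covered its longest 3′ UTR in GENCODE vM21 (GRCm38). Of the 10 genes, 3 held a match, 6 matches in all, and none held the 8-base form. The windows below are shown because they are the places where the mimic could pair with a member, with the match in capitals.
Ago1, UTR position 1647 of 4491, chr4:126437850-126437856, minus strand: tttctacccctCTCTTGAggttctggggtt
Ago3, UTR position 8920 of 12742, chr4:126336548-126336554, minus strand: gagctgtgcctGCTCTTGgcaaactaacat
Ago3, UTR position 12268 of 12742, chr4:126333200-126333206, minus strand: ttctactcccaGCTCTTGccaaatactcct
Tnrc6b, UTR position 229 of 11609, chr15:80929705-80929711, plus strand: agaacatatcaCTCTTGAaatacttgaatc
Tnrc6b, UTR position 2573 of 11609, chr15:80932049-80932055, plus strand: tgtccactgccGCTCTTGgttcatggccct
Tnrc6b, UTR position 4691 of 11609, chr15:80934167-80934173, plus strand: tttttttctaaCTCTTGAttagtagtaggt
Among the tested genes with an annotated 3′ UTR, 22.7% held at least 1 match and 3.51% held the 8-base form. The members carried 0.114 matches per 1000 bases of 3′ UTR, against 0.176 over all these genes. The 3′ UTRs of Ago3 and Tnrc6b were 12742 and 11609 bases long, against a median of 1188 bases. The Ago2 3′ UTR, 11064 bases long, had no match, and neither had those of Ago4, Dicer1, Drosha, Dgcr8, Xpo5 and Tnrc6a. A match is a run of letters and not a shown target site.

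The libraries held 17.69 to 18.94 estimated counts each, in units of 1e6. Adipocyte marker genes (Adipoq, Fabp4, Pparg, Plin1, Cidec, Lipe; 6 of 6 detected) summed to 6569 to 8591 CPM at day 3 and 6360 to 9626 CPM at day 6, where CPM means counts per 1e6 counts after TMM scaling. The summed adipocyte genes of the libraries labelled preadipocyte thus overlapped those of the libraries labelled adipocyte. Under the NT mimic, Adipoq, the adiponectin gene, rose from a mean of 116 to 1677 CPM and Cidec, a lipid droplet gene, fell from 3370 to 998 CPM, while Fabp4, Pparg, Plin1 and Lipe were not called. Fibroblast markers (Col1a1, Col3a1, Pdgfra, Pdgfrb, Thy1, 5 of 5) summed to 1180 to 2276 CPM at day 3 and 5683 to 10819 CPM at day 6. The largest of them was Col3a1, with NT means of 1015 CPM at day 3 and 6346 CPM at day 6. Under the NT mimic Col1a1, Col3a1 and Pdgfrb were called higher, and Pdgfra and Thy1 were not called. Macrophage markers (5 of 5 listed) summed to 0.420 to 2.27 CPM and 4.33 to 12.1 CPM, with Ptprc, Adgre1 and Csf1r under 1 CPM everywhere, and endothelial markers stayed under 1 CPM in every library, with Kdr at 0. Epithelial markers summed to 1.75 to 8.64 CPM at day 3 and 18.99 to 43.7 CPM at day 6, all from Krt8 and Krt18 with Cdh1 near 0. Des, the only listed skeletal muscle marker in the count table, ran from 5.46 to 8.45 CPM and from 11.8 to 22.2 CPM. The muscle markers Myod1 and Myog and the epithelial marker Epcam were also listed but were not in the count table. The fibroblast, macrophage and epithelial sums and Des were higher at day 6, without overlap of the days, whereas the adipocyte sums overlapped. The part of these markers in the day results below was not tested.

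To see how the machinery differed between day 3 and day 6, the days were compared separately under each mimic. Of the 10 members, 9 passed the filter on low counts, and Ago4 did not. Under the NT mimic, Dgcr8 and Tnrc6b rose and Ago3 fell, 3 of 9 tested members (2 higher, 1 lower) at an adjusted p below 0.01 in edgeR's quasi-likelihood test. Over all 11703 genes tested, 35.6% passed the same test, 18.8% higher and 16.7% lower at day 6, so the members' share was close to the background. Under the miR-335-5p mimic, Dgcr8 rose and Ago3 fell, 2 of 9, against 34.7% of all genes (18.2% higher, 16.5% lower). The median log2 difference of the 9 members was 0.05 under the NT mimic and −0.12 under the miR-335-5p mimic, against 0.03 and 0.02 over all genes. The libraries of the mimics share neither samples nor controls in these comparisons, but all 12 share 1 estimate of the spread. Libraries of the same day and replicate number also deviated together across the mimics (r 0.574 to 0.85). The comparisons under the mimics are therefore not independent of each other. In whole-culture RNA, fewer cells of a type and less RNA per cell cannot be told apart.

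**Figure D1:**
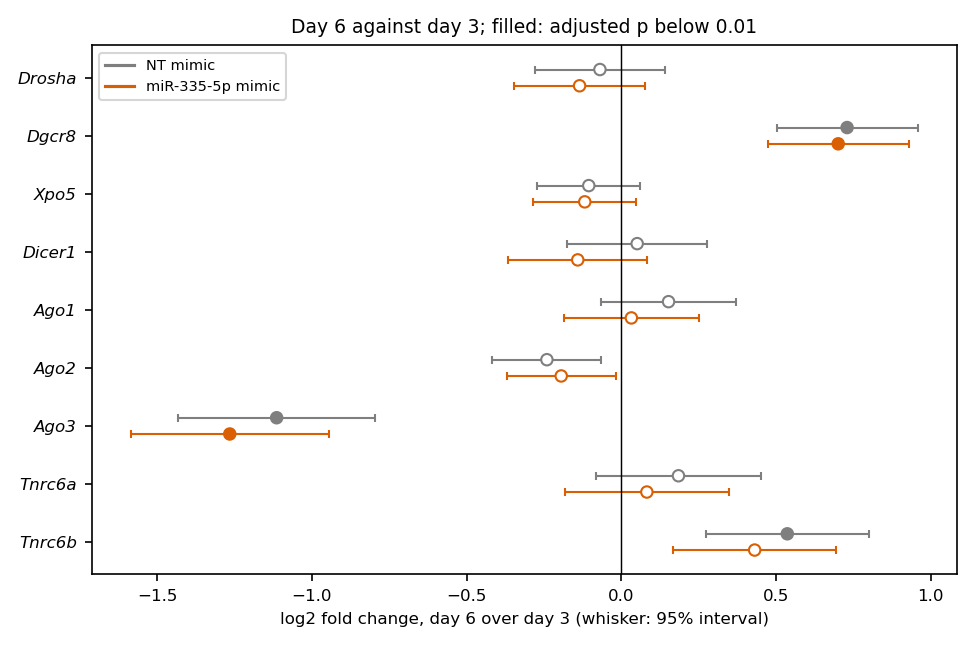
Log2 fold change of day 6 over day 3 (horizontal axis) for the 9 tested members under the NT mimic (grey) and the miR-335-5p mimic (orange), with 95% intervals from edgeR as whiskers and filled points where the adjusted p was below 0.01. Ago3 stands at −1.11 and −1.27, Dgcr8 at 0.73 and 0.70 and Tnrc6b at 0.54 and 0.43, with all other members between −0.24 and 0.19.

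The scaling bears on the size of every day difference. With library totals alone in place of TMM, the median gene moved from 0.03 to 0.20 on the log2 scale under the NT mimic and from 0.02 to 0.18 under the miR-335-5p mimic. The split of calls under the NT mimic went from 2206 higher and 1957 lower to 3008 higher and 1160 lower, and under the miR-335-5p mimic from 2135 and 1926 to 2894 and 1162. Under library totals, Ago3 still fell (−0.94 and −1.10) and Dgcr8 (0.91 and 0.87) and Tnrc6b (0.71 and 0.60) rose under both mimics.

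Of the Microprocessor genes, Dgcr8 rose under both mimics and Drosha was called under neither; the difference between them was not tested. Drosha (Entrez 14000, chromosome 15), the nuclease, gave 154, 160 and 158 CPM with the NT mimic and 158, 175 and 166 CPM with the miR-335-5p mimic at day 3, for replicate numbers 1, 2 and 3. At day 6 it gave 137, 149 and 164 CPM with the NT mimic and 134, 152 and 169 CPM with the miR-335-5p mimic. The days overlapped under both mimics, and the log2 difference was −0.07 (95% interval −0.28 to 0.14) with the NT mimic and −0.13 (−0.35 to 0.08) with the miR-335-5p mimic. With library totals alone these became 0.11 and 0.03, so no direction is given for Drosha.

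Dgcr8 (Entrez 94223, chromosome 16), the double-stranded RNA-binding subunit, was higher at day 6 in every library. It gave 20.8, 24.3 and 21.7 CPM with the NT mimic and 20.8, 24.5 and 22.5 CPM with the miR-335-5p mimic at day 3. At day 6 the values were 33.1, 40.1 and 37.7 CPM and 36.6, 38.8 and 34.7 CPM. The lowest day 6 library thus lay above the highest day 3 library under both mimics. The rise was 1.66-fold under the NT mimic (log2 0.73, 0.50 to 0.96, edgeR adjusted p = 0.000162) and 1.63-fold under the miR-335-5p mimic (log2 0.70, 0.47 to 0.93, edgeR adjusted p = 0.000218). The exons of Dgcr8 overlap those of Trmt2a, a tRNA methyltransferase gene on the opposite strand, and of Gm49776, and 8.15% of its 50-base windows occur in another annotated gene. No source used here says whether reads were counted by strand, and the Dgcr8 level is uncertain to that extent. Trmt2a was at 47.2 to 57.3 CPM at day 3 and 53.9 to 65.1 CPM at day 6.

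The ratio of the subunits is given as a description. Per kilobase of the longest annotated transcript, Dgcr8 was 13.9% to 16.1% of Drosha over the 6 libraries of day 3 and 21.8% to 29.0% over the 6 libraries of day 6. With coding length the ratio was 23.4% to 27.0% and 36.5% to 48.7%, and with the union of exons 10.2% to 11.7% and 15.9% to 21.2%. The size of the ratio thus depended on the length used, and the days did not overlap with any of the 3 lengths. No test was made on this ratio or on the shares given further on.

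Xpo5 and Dicer1, which act after the Microprocessor, were not called under either mimic. Xpo5 (Entrez 72322, chromosome 17), the exporter, gave 79.3, 87.1 and 82.9 CPM with the NT mimic and 88.3, 87.9 and 80.5 CPM with the miR-335-5p mimic at day 3, and 71.3, 78.5 and 82.0 CPM and 80.9, 78.7 and 77.0 CPM at day 6. Its log2 differences, −0.10 (−0.27 to 0.06) and −0.12 (−0.28 to 0.05), became 0.07 and 0.05 with library totals. Dicer1 (Entrez 192119, chromosome 12), the cytoplasmic nuclease, gave 49.6, 42.0 and 41.5 CPM with the NT mimic and 50.7, 48.2 and 43.4 CPM with the miR-335-5p mimic at day 3. At day 6 it gave 42.5, 49.8 and 45.7 CPM and 39.4, 45.3 and 44.4 CPM. The log2 differences were 0.05 (−0.17 to 0.28) and −0.14 (−0.37 to 0.08). Under library totals they became 0.23 (−0.04 to 0.49) and 0.02. The intervals of Xpo5 and Dicer1 leave no room for a change of 0.5 log2 units.

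**Figure D2:**
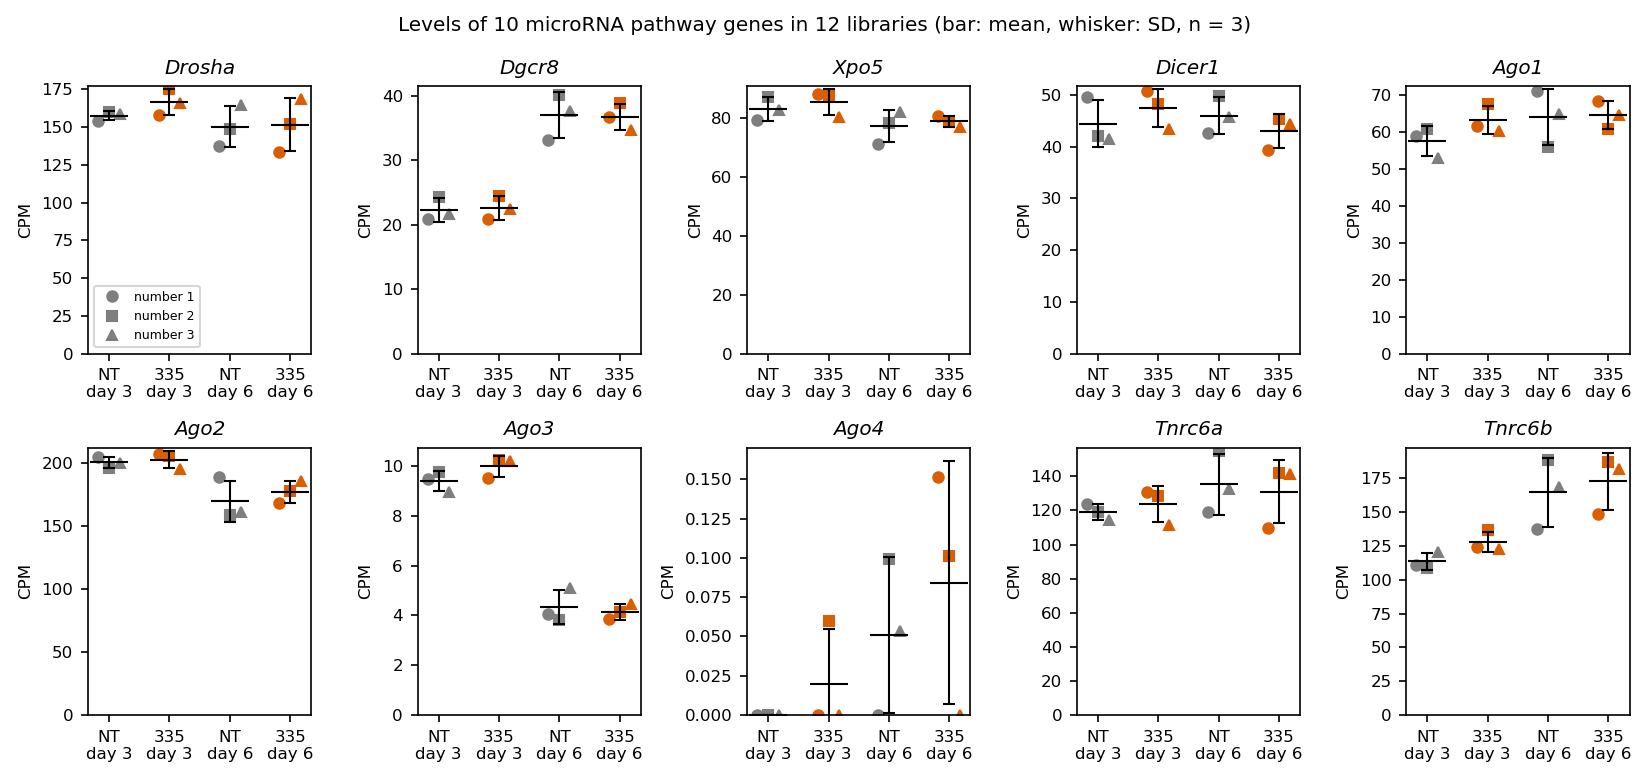
TMM-scaled CPM (vertical axis, from 0) of the 10 members in the 12 libraries, by mimic (grey NT, orange miR-335-5p) and day, with the replicate number as the point's shape and the mean and SD (n = 3) in black. The day 6 libraries of Dgcr8 (33.1 to 40.1 CPM) and Tnrc6b (138 to 188 CPM) lie above those of day 3, those of Ago3 (3.83 to 5.12 CPM) lie below, and Ago4 stays at or below 0.152 CPM.

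Of the 4 Argonaute genes, Ago3 fell and no other was called. Ago3 (Entrez 214150, chromosome 4), whose protein loads the same duplexes as the other Argonautes, gave 9.49, 9.75 and 8.94 CPM with the NT mimic and 9.51, 10.3 and 10.2 CPM with the miR-335-5p mimic at day 3. At day 6 it gave 4.07, 3.83 and 5.12 CPM and 3.84, 4.14 and 4.48 CPM. The days were far apart: the highest day 6 library was below the lowest day 3 library by more than the whole range of either. Ago3 was 2.16-fold lower at day 6 under the NT mimic (log2 −1.11, −1.43 to −0.79, edgeR adjusted p = 8.75e-05) and 2.40-fold lower under the miR-335-5p mimic (log2 −1.27, −1.58 to −0.95, edgeR adjusted p = 3.82e-05). These levels rest on 148 to 174 counts per library at day 3 and 76 to 96 at day 6, and 0.778% of the 50-base windows of Ago3 also occur in another member.

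Ago2 (Entrez 239528, chromosome 15), the slicing Argonaute, gave 205, 197 and 200 CPM with the NT mimic and 208, 206 and 195 CPM with the miR-335-5p mimic at day 3, and 189, 159 and 162 CPM and 169, 178 and 186 CPM at day 6. No day 6 library reached the lowest day 3 library of the same mimic. The log2 difference was −0.24 (−0.42 to −0.06, edgeR adjusted p = 0.0268) under the NT mimic and −0.19 (−0.37 to −0.02, edgeR adjusted p = 0.0636) under the miR-335-5p mimic, short of the threshold. With a replicate block within each day, which measures the day against the spread inside pairs of equal number only, the adjusted p was 0.00156 and 0.00826, and DESeq2 gave 0.00689 under the NT mimic. With library totals the differences shrank to −0.07 and −0.03. The exons of Ago2 overlap those of Chrac1, on the opposite strand, which was at 23.2 to 29.3 CPM over all libraries.

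Ago1 (Entrez 236511, chromosome 4) gave 59.0, 60.7 and 52.9 CPM with the NT mimic and 61.7, 67.5 and 60.3 CPM with the miR-335-5p mimic at day 3. At day 6 it gave 71.0, 56.0 and 64.9 CPM and 68.5, 60.8 and 64.5 CPM. The days overlapped, with log2 differences of 0.15 (−0.06 to 0.37) and 0.03 (−0.18 to 0.25). Under library totals these became 0.32 (0.11 to 0.54, edgeR adjusted p = 0.0148) and 0.20 (−0.01 to 0.41), short of the threshold. Ago4 (Entrez 76850, chromosome 4) had 9 counts in all: 7 libraries had none and the other 5 had 1 to 3. By group they were 0 (NT) and 1 (miR-335-5p) at day 3, and 3 (NT) and 5 (miR-335-5p) at day 6. A count of 0 allows up to 3 counts in a library, which is 0.149 to 0.181 CPM here, so differences in Ago4 within that level could not be detected at this depth. This limit covers counting error only. Without the filter on low counts its log2 difference between days was 3.09 (−0.99 to 7.16) under the NT mimic and 1.78 (−1.34 to 4.90) under the miR-335-5p mimic, not called, and such fitted values depend on the prior count.

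As shares of the summed Argonaute level per kilobase, Ago2 held 59.9% to 64.8% at day 3 and 55.6% to 59.7% at day 6 over both mimics, and Ago1 held 32.7% to 37.5% and 39.0% to 43.2%. Ago3 held 2.52% to 2.83% and 1.10% to 1.56%. These ranges did not overlap between the days, but with coding length those of Ago2 did, at 72.5% to 76.4% and 69.7% to 73.1%. The ranges of Ago1 and Ago3 stayed apart with every length. The Argonaute sum ran from 22.4 to 24.9 CPM per kilobase at day 3 and from 19.5 to 23.8 at day 6, where the days did overlap.

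**Figure D3:**
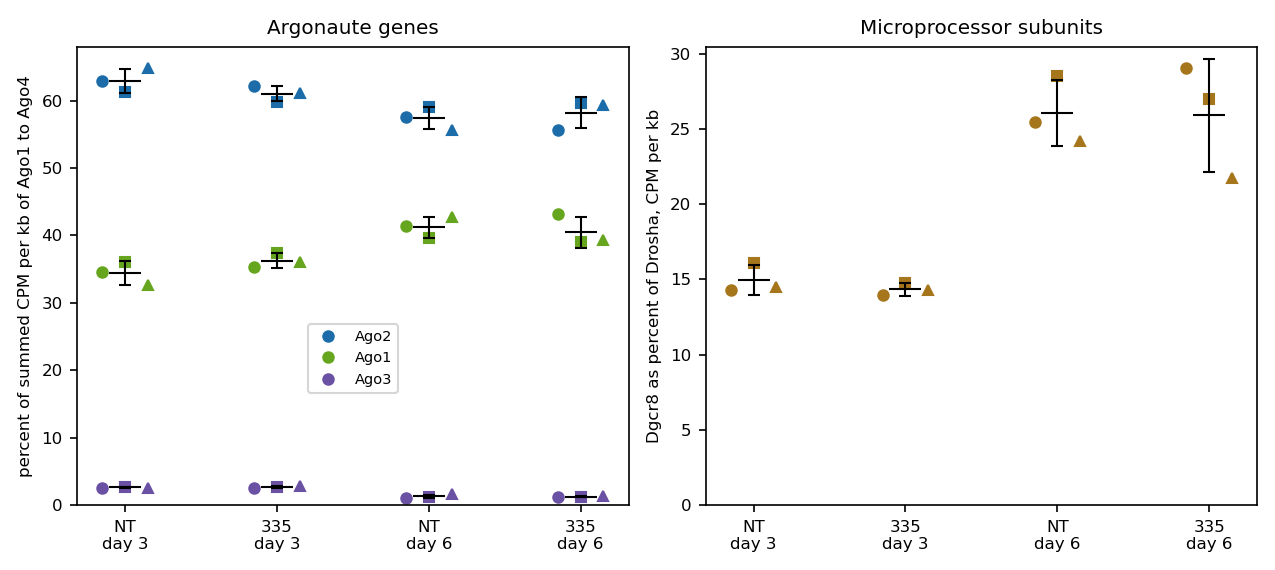
Left, Ago1, Ago2 and Ago3 as percent of the summed CPM per kilobase of the 4 Argonaute genes; right, Dgcr8 as percent of Drosha on the same scale, by mimic and day, with the replicate number as the point's shape (circle 1, square 2, triangle 3) and mean and SD (n = 3) in black. Ago3 goes from 2.52% to 2.83% at day 3 to 1.10% to 1.56% at day 6, and the Dgcr8 ratio from 13.9% to 16.1% to 21.8% to 29.0%.

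Of the GW182 genes, which link Argonaute to deadenylation, Tnrc6b rose under the NT mimic and Tnrc6a was not called. The difference between them was not tested. The other GW182 gene, Tnrc6c, is not among the 10 members. It was not called under either mimic (log2 −0.24 NT, −0.22 miR-335-5p). Tnrc6b (Entrez 213988, chromosome 15) gave 111, 109 and 121 CPM with the NT mimic and 125, 137 and 123 CPM with the miR-335-5p mimic at day 3, and 138, 188 and 169 CPM and 149, 187 and 182 CPM at day 6. Every day 6 library was above every day 3 library, with 138 against 137 CPM at the closest, and number 1 was the lowest of its group on day 6 under both mimics. The rise was 1.45-fold under the NT mimic (log2 0.54, 0.27 to 0.80, edgeR adjusted p = 0.00321). Under the miR-335-5p mimic the log2 difference was 0.43 (0.17 to 0.69, edgeR adjusted p = 0.0112), short of the threshold, and with a replicate block it was 0.42 (0.23 to 0.62, edgeR adjusted p = 0.00124). It also passed in edgeR with library totals (adjusted p = 0.00257) and in DESeq2 (adjusted p = 0.00234). In the edgeR fit with the block within each day, which 64.7% of all genes passed, its adjusted p was 1.51e-06. That fit measures the day against the spread inside pairs of equal number only. Without the filter on low counts it did not pass (edgeR adjusted p = 0.0136). The NT call was lost on leaving out day 3 NT library 1 (adjusted p = 0.0132) or 2 (0.0162) or day 6 NT library 2 (0.0170) or 3 (0.0122), while the miR-335-5p value passed without day 6 library 1 (0.00379), all in edgeR. With the replicate block and any 1 library left out, Tnrc6b passed in all 6 fits under each mimic, with adjusted p from 0.000238 to 0.00243 and from 0.00133 to 0.00975.

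Tnrc6a (Entrez 233833, chromosome 7) gave 124, 119 and 115 CPM with the NT mimic and 131, 129 and 111 CPM with the miR-335-5p mimic at day 3. At day 6 it gave 119, 155 and 132 CPM and 110, 142 and 141 CPM. The days overlapped, the log2 differences were 0.19 (−0.08 to 0.45) and 0.08 (−0.18 to 0.35), and the test did not call them. Under library totals they became 0.36 (0.06 to 0.66, edgeR adjusted p = 0.0430) and 0.25 (−0.05 to 0.54), also not called. Within-day blocking gave 0.18 (0.06 to 0.30) with an edgeR adjusted p of 0.00776 under the NT mimic only, where 65.1% of all genes passed. The day difference itself was not called as differing between mimics for any gene. Of the summed level per kilobase of Tnrc6a and Tnrc6b, Tnrc6b held 29.8% to 34.3% at day 3 and 35.3% to 39.1% at day 6. With coding length its share was 48.5% to 53.7% and 54.7% to 58.8%, so which of the pair is the larger depends on the length used.

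With a replicate block, 51.9% of all genes were called between days under the NT mimic and 51.6% under the miR-335-5p mimic, and 3 of 9 members under each: Ago3, Dgcr8 and Tnrc6b. With the block within each day, 65.1% and 64.7% were called, with 5 members under the NT mimic and 4 under the miR-335-5p mimic. Genes whose 3 libraries of day 6 did not overlap the 3 of day 3 in CPM were counted as well. Under each mimic 4 of 9 members (Ago2, Ago3, Dgcr8, Tnrc6b) did not overlap, against 59.6% of all genes under the NT mimic and 56.5% under the miR-335-5p mimic.

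Whether the miR-335-5p mimic changed the machinery was asked at each day, since the mimic is loaded into the same Argonaute proteins. No member was called at either day, 0 of 9, where 0% of all 11703 genes were called by edgeR. Unadjusted, 59 genes had a p below 0.05 at day 3 and 21 at day 6, and DESeq2 likewise called none, with 56 and 16. In edgeR with a replicate block these counts were 258 and 153, and with the block within each day 853 and 593. A fit without a block keeps the shared deviation of equal replicate numbers in its spread, so its low counts do not measure how small the mimic effect was. Averaged over the days, 8 of 9 members were above 0 against 48.8% of all genes, and no gene was called either (77 with an unadjusted p below 0.05, DESeq2 80), nor was any difference of the mimic effect between days (29, DESeq2 24). In the fit with a replicate block within each day, which has the smallest spread, 4 genes were called at day 3 (0.0342%), 0 at day 6 and 2 in the average (0.0171%). None of them was a member.

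The members' values at day 3 nevertheless leaned to one side. All 9 log2 differences between mimics were above 0, against 49.6% of all genes, with a median of 0.08 against 0.00. The largest was that of Tnrc6b, 0.17 (−0.09 to 0.44), with libraries at 123 to 137 CPM under the miR-335-5p mimic and 109 to 121 CPM under the NT mimic. It was the only member whose groups did not overlap, 1 of 9, where 4.23% of all genes did not. Its log2 differences within numbers 1, 2 and 3 were 0.17, 0.33 and 0.03. With the block within each day, its unadjusted edgeR p was 0.00747 and its adjusted p was 0.472. Ago1 came next at 0.13 (−0.08 to 0.35), with 0.06, 0.15 and 0.19 within the numbers, followed by Dicer1 at 0.10 and Ago3 at 0.09. Drosha was at 0.08, Tnrc6a at 0.05, Xpo5 at 0.04, and Dgcr8 and Ago2 both at 0.02. The intervals of all 9 members included 0. Of the members, 6 of 9 were higher in all 3 numbers, against 14.1% of all genes. All 9 stayed above 0 with RLE size factors and with library totals, whereas Ago2, Ago3, Dgcr8, Xpo5 and Tnrc6a turned below 0 in at least 1 fit with a library left out. The 9 genes were measured in the same 6 libraries and are not independent of each other. Of the 64 tested further genes of the pathway listed below, 35 were above 0 at day 3, with a median of 0.01.

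At day 6 the values lay on both sides of 0. The log2 differences ran from −0.10 for Dicer1 (−0.32 to 0.13) to 0.07 for Tnrc6b (−0.19 to 0.33), 5 of 9 were above 0 against 47.5% of all genes, and no member's groups failed to overlap (2.58% of all genes). No member was higher in all 3 numbers (10.2% of all genes) and 1, Dicer1, was lower in all 3 (14.9%), by 0.11, 0.13 and 0.04. The 95% intervals at both days leave no room for a change of 0.5 log2 units in any of the 9 tested members. Of the 3 members with a seed match in the 3′ UTR, none was lower with the miR-335-5p mimic at day 3. At day 6 Ago1 and Tnrc6b had log2 differences of 0.01 and 0.07 and Ago3 of −0.06 (−0.39 to 0.26).

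**Figure D4:**
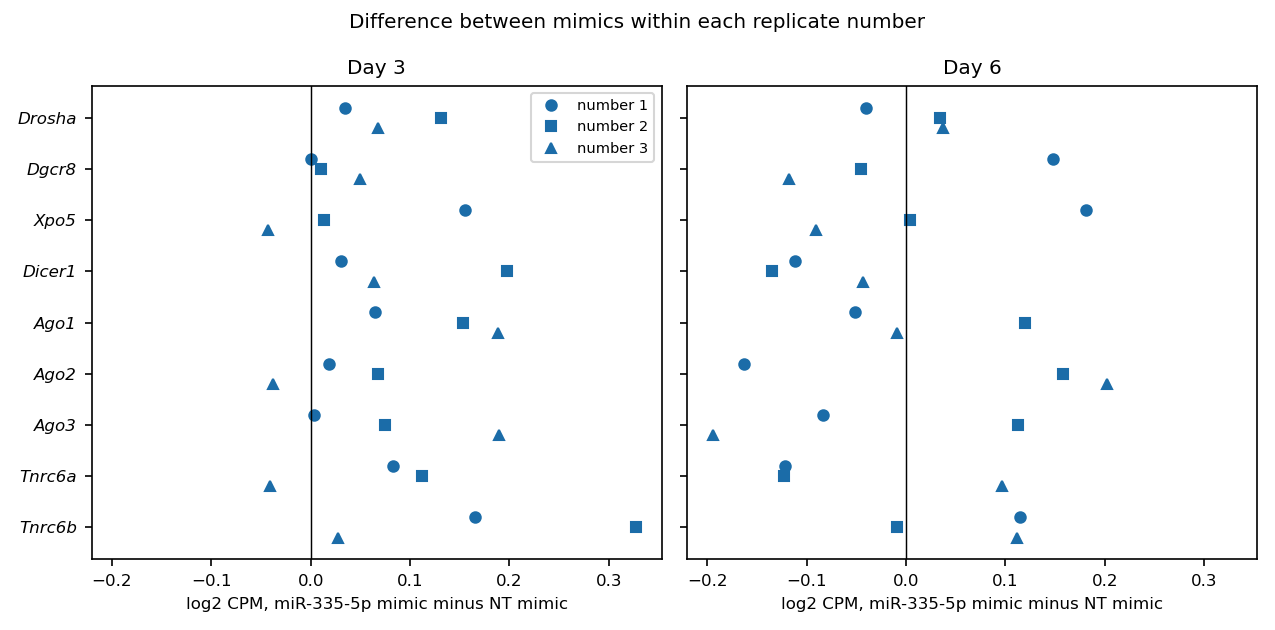
Log2 CPM with the miR-335-5p mimic minus log2 CPM with the NT mimic (horizontal axis) for the 9 tested members, within replicate numbers 1 (circle), 2 (square) and 3 (triangle), at day 3 (left) and day 6 (right). At day 3 all 9 points of numbers 1 and 2 lie above 0 and so do 6 of 9 of number 3; at day 6, 3, 5 and 4 of 9 lie above 0.

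The libraries also differed by replicate number. Over all libraries together, 0 of 9 members differed between numbers at an adjusted p below 0.01 in edgeR, against 18.7% of all genes (number 1 against 2 and 3: 22.3%), with an unadjusted p below 0.05 for Tnrc6b, Dgcr8 and Drosha, and DESeq2 also called 0 members. Within days, more was called in the fit with a block within each day. That fit measures a number against the spread inside pairs of equal number and day only. At day 6, number 1 was lower than the mean of 2 and 3 for Tnrc6b (log2 −0.34, −0.47 to −0.22, edgeR adjusted p = 0.000103), Tnrc6a (−0.32, −0.44 to −0.19, 0.000191) and Drosha (−0.23, −0.34 to −0.12, 0.00128), 3 of 9 members against 40.5% of all genes. At day 3 no member was called, against 21.9% of all genes, with Dicer1 at 0.20 (0.06 to 0.33, edgeR adjusted p = 0.0241) and Tnrc6a at 0.11 (−0.02 to 0.23). Dicer1 was the only member below 0.05 there before adjustment. This comparison was added after the values had been seen.

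**Figure D5:**
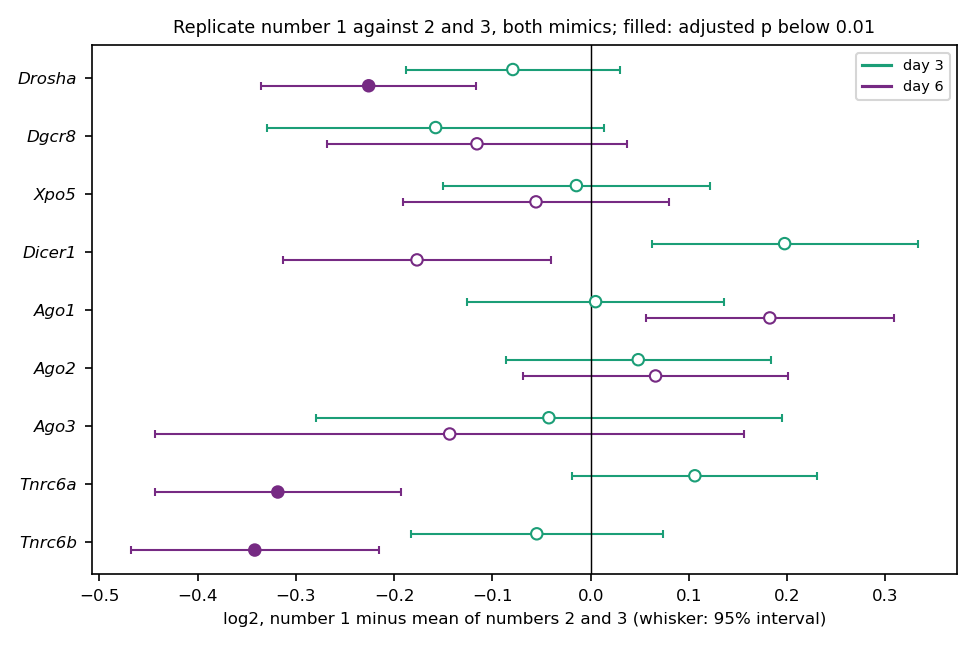
Log2 difference of replicate number 1 from the mean of numbers 2 and 3 (horizontal axis) for the 9 tested members at day 3 (green) and day 6 (purple), over both mimics, with 95% intervals from edgeR and filled points where the adjusted p was below 0.01. Tnrc6b (−0.34), Tnrc6a (−0.32) and Drosha (−0.23) pass at day 6, and Tnrc6a and Dicer1 lie on opposite sides of 0 on the 2 days.

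Other genes moved with the replicate number too. Mest, the imprinted gene that hosts miR-335, was at 2.67, 0.587 and 0.121 CPM with the NT mimic at day 3 and at 16.5, 4.92 and 1.44 CPM at day 6, for numbers 1, 2 and 3. Its number 1 libraries were higher by 2.81 (day 3) and 2.73 (day 6) log2 units. The proliferation markers Mki67, Top2a, Ccnb1 and Cdk1 (4 of 4) summed to 321 to 339 CPM in number 1 at day 3, against 190 to 226 in number 2 and 273 to 282 in number 3. At day 6 they summed to 226 to 280 CPM in number 1, 123 to 148 in number 2 and 130 to 150 in number 3. What a number marks is not stated in the labels, and the part of these values in the members' differences was not tested.

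Levels of different genes were compared per kilobase of the longest annotated transcript, as mean ± SD over the 12 libraries. Drosha stood highest at 34.2 ± 2.68 CPM per kilobase, followed by Xpo5 (16.0 ± 0.970), Tnrc6a (15.6 ± 1.68) and Ago2 (13.6 ± 1.25), then Ago1 (8.62 ± 0.724), Tnrc6b (8.36 ± 1.71), Dgcr8 (6.86 ± 1.81) and Dicer1 (4.59 ± 0.372). Ago3 was at 0.447 ± 0.185 and Ago4 at 0.00593 ± 0.00818. The SDs of neighbours in this order overlapped between Xpo5 and Tnrc6a, between Tnrc6a and Ago2, and among Ago1, Tnrc6b and Dgcr8. The order depends on which length is used, because 3′ UTRs differ: per kilobase of coding sequence, Ago2 led with 72.6 and Drosha followed with 37.9, Tnrc6b with 26.7 and Ago1 with 24.2. Dgcr8, Dicer1, Ago3 and Ago4 stayed the lowest 4, in that order, under all 3 lengths tried. Which transcripts the cells made was not resolved in a table of genes.

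Around the 10 members, 67 further genes of the pathway were followed by role, of which 64 were tested. Under the NT mimic 3 rose and 13 fell from day 3 to day 6, 25.0% against the 35.6% of all genes, with a median log2 difference of −0.15, and under the miR-335-5p mimic 3 rose and 16 fell, with a median of −0.11, against 34.7% of all genes called. These counts and medians use TMM scaling and were not repeated with library totals. With library totals the median of all genes was 0.20 (NT) and 0.18 (miR-335-5p), against 0.03 and 0.02 under TMM scaling. The place of the list against 0 may therefore depend on the scaling. Its medians lay below those of all genes under TMM scaling, and this was not tested with library totals. The counts by role that follow are those under the NT mimic; under the miR-335-5p mimic they differed by 1 more lower in export and loading (Prkra, which binds Dicer, log2 −0.51) and 2 more lower in deadenylation (Cnot1, −0.36, and Pan2, −0.61). These 3 were named after their values were seen. No gene of the list was called between mimics. Among Microprocessor cofactors (1 higher and 1 lower of 7 under the NT mimic), Srsf3, a splicing factor that helps recognise hairpins, rose (log2 0.70, 93.4 ± 9.0 to 152 ± 7.17 CPM, SD, n = 3), and Hnrnpa1, an RNA-binding protein that aids cutting of some hairpins, fell (−0.61). Of 10 genes of export and loading, Fkbp5, an Hsp90 co-chaperone and a known glucocorticoid-induced gene, was the only one called under the NT mimic, with a fall of 3.53 log2 units from 2117 ± 231 to 184 ± 14.8 CPM. The day and the withdrawal of dexamethasone cannot be told apart here.

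Among 10 tested Tnrc6 and Argonaute partners (1 higher and 3 lower), Zswim8 rose (log2 1.11, 66.2 ± 12.4 to 142 ± 31.0 CPM). Zswim8 is the adaptor of the ubiquitin ligase known to destroy Argonaute during target-directed microRNA decay. In the same role Fxr1, an FMRP relative that binds Argonaute complexes, fell (−0.55), and so did Snd1 (−0.51), a nuclease found in silencing complexes. Deadenylation had 2 lower of 14: Cnot6l, a catalytic subunit of CCR4-NOT, fell from 141 ± 7.03 to 70.2 ± 1.94 CPM (log2 −1.01), and Pabpc1, the main cytoplasmic poly(A)-binding protein, fell as well (−0.60). Decapping and decay had 1 higher and 3 lower of 13. The lower were Eif4enif1 (4E-T, −0.69), Dcp1a (a decapping cofactor, −0.59) and Gigyf2 (a translational repressor, −0.48). Tailing and turnover had 3 lower of 10: Tut4, which adds uridines to precursors (−0.71), Parn, a poly(A)-specific exonuclease (−0.59), and Dis3l2, which degrades uridylated RNA (−0.52). The 5 values of Gigyf2, Dcp1a, Parn, Tut4 and Dis3l2 fell short of the threshold with library totals, at −0.31, −0.41, −0.41, −0.53 and −0.35. With single libraries left out, Dis3l2 passed in 2 of 6 fits and Tut4 in 5 of 6.

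The patterns of Ago2 and Dicer1 over the 12 libraries were set beside those of 8838 genes as a description. For Ago2 the closest were Tmem60 (Pearson r of log2 CPM 0.943), Stam (0.943) and Tbrg1 (0.941), and for Dicer1 they were Snx9 (0.890), Nol8 (0.882) and Ccny (0.866). Among the 36 pairs of members, Dgcr8 and Tnrc6b were the most alike (r 0.893) and Ago3 and Dgcr8 the most opposed (r −0.944). These points share libraries and days, and for Ago3, Dgcr8 and Tnrc6b the day takes most of the range.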

How the data were processed

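The authors deposited 1 table of estimated counts (expected counts, as RSEM gives) for 16414 genes by Entrez ID in 12 libraries. HISAT2 2.2.1, RSEM 1.3.1 and the mm39 build come from the submitters' processing notes, without their roles; annotation, strandedness and filtering: not given in the sources used here. Of the values 3.37% were not whole (tolerance 1e-06), and all were rounded before testing. RefSeq GRCm38.p6 gave symbols for 16387 IDs and none for 27. Libraries were grouped by mimic and day from their titles. Genes were filtered with filterByExpr, scaled by TMM and tested with edgeR 4.0.16 (quasi-likelihood, robust; R 4.3.3) over all 12 libraries, with Benjamini-Hochberg adjustment over 11703 genes and a threshold of 0.01; DESeq2 1.42.0 was an alternative. The fits were tried on simulated data without shared deviation of equal replicate numbers, so that trial does not cover the pairing described below. CPM are TMM-scaled. Transcript lengths and 3′ UTRs came from GENCODE vM21.

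The members and gene lists were chosen with earlier results of these data known. Of the further pathway genes, the text names up to 3 called genes per role with the lowest adjusted p under the NT mimic at a mean of at least 5 CPM and without overlap of the days. Genes resembling a member were sought for Ago2 and Dicer1.

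Libraries with the same replicate number deviated together: the 6 same-day pairs correlated at r 0.574 to 0.85 and the 12 across days at 0.282 to 0.552, against −0.71 to 0.336 for 36 pairs of different numbers, so the numbers pair the libraries in the data; the labels do not say what they mark. Nothing says that libraries came from separate cultures, and p-values measure only the spread between these libraries. No pair of libraries agreed within sampling noise (chi-square over degrees of freedom at least 3.38). Alternatives were RLE size factors, library totals, no filter on low counts, DESeq2, a replicate block over all days or within each day, only the libraries compared, other lengths and leaving out each library.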

Additional observations from a re-analysis of the deposited data

Results flagged for a closer look

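The difference of replicate number 1 from numbers 2 and 3 was called as differing between the days for 2 members. The test was of the difference itself, in the edgeR fit with a replicate block within each day. Each number at each day was 1 library per mimic, and such pairs deviated together. The p-values therefore measure the difference against the spread inside these pairs only. They cannot decide whether a number's effect differs between days beyond these libraries. The comparison of number 1 with numbers 2 and 3 was added after the values had been seen. For Tnrc6a, number 1 was 0.11 log2 units above the mean of numbers 2 and 3 at day 3 (95% interval −0.02 to 0.23) and 0.32 below it at day 6 (−0.32, −0.44 to −0.19), a difference of −0.42 (−0.60 to −0.25, edgeR adjusted p = 0.00105). At day 6 both number 1 libraries, at 110 and 119 CPM, lay below the other 4, at 132 to 155 CPM, and at day 3 they lay at 131 and 124 CPM beside 111 to 129 CPM.

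For Dicer1 the same difference was −0.37 (−0.57 to −0.18, edgeR adjusted p = 0.00532). Number 1 gave 50.7 and 49.6 CPM at day 3, above the other 4 at 41.5 to 48.2 CPM, and 39.4 and 42.5 CPM at day 6, below the other 4 at 44.4 to 49.8 CPM. Such a difference was called for 1771 genes, 15.1% of all tested, and for 2 of 9 members. Tnrc6b, at −0.29, missed the threshold (edgeR adjusted p = 0.0181). Number 1 also held the highest proliferation marker sums on both days, and their part was not tested.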

How the results depend on the processing

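Ago3 and Dgcr8 kept their direction and call between days under both mimics in every alternative run. Tnrc6b kept its direction in all of them; its calls with and without single libraries are given with its values. Leaving out single libraries, 2 to 4 members were called under the NT mimic and 2 to 3 under the miR-335-5p mimic; Ago2 passed without day 6 NT library 1 (edgeR adjusted p = 0.00566). The block over all days changed no member's call but that of Tnrc6b under the miR-335-5p mimic. With the replicate block within each day, the members called were 5 (NT) and 4 (miR-335-5p), and genes called 7618 and 7570; between mimics 4 genes were called at day 3 and 2 in the average. DESeq2 with a replicate block, chosen after seeing the data, called 6153 genes under the miR-335-5p mimic. Between replicate numbers, 3392 genes were called with day 3 libraries only and 3992, with 3 members, at day 6. The cause was not tested.

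Signs turned 69 times in 22 results, always in values that were called in neither fit. With library totals these were Drosha 0.11 and 0.032 and Xpo5 0.071 and 0.047 (NT, miR-335-5p) and Dicer1 0.024 (miR-335-5p). The day 6 mimic value of Dgcr8 became 0.00 in DESeq2 with a replicate block and 0.0002 with the 6 libraries compared alone. The averaged mimic value of Dicer1 became 0.0021 (RLE), 0.0050 (library totals), 0.0020 (DESeq2) and 0.0021 (DESeq2 with a block).

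Leaving out each library, with and without a replicate block, gave the ranges of log2 values that follow. Between days they were −0.024 to 0.16 for Dicer1 under the NT mimic, and −0.044 to 0.11 for Ago1 and −0.024 to 0.20 for Tnrc6a under the miR-335-5p mimic. Between mimics at day 3 they were −0.014 to 0.036 for Ago2, −0.0095 to 0.14 for Ago3, −0.042 to 0.088 for Dgcr8, −0.0033 to 0.083 for Xpo5 and −0.056 to 0.14 for Tnrc6a. At day 6 they were −0.086 to 0.096 for Ago1, −0.16 to 0.072 for Ago3, −0.072 to 0.096 for Drosha, −0.082 to 0.054 for Dgcr8, −0.029 to 0.095 for Xpo5, −0.15 to 0.065 for Tnrc6a and −0.047 to 0.18 for Tnrc6b. The average over days was −0.038 to 0.055 for Dicer1, and the difference between days was −0.0073 to 0.13 for Ago2.

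Levels per kilobase moved with the length used. With coding length they were Ago1 24.2, Ago2 72.6, Ago3 2.70, Ago4 0.015, Dicer1 7.90, Drosha 37.9, Dgcr8 12.8, Xpo5 22.5, Tnrc6a 22.4 and Tnrc6b 26.7. With the union of exons they were Ago1 7.67, Dicer1 2.70, Drosha 26.4, Dgcr8 3.85, Xpo5 11.8, Tnrc6a 10.0 and Tnrc6b 6.12. Ago4 was tested only without the filter on low counts, where it was not called.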
